A study of Mus musculus with 2 samples.

Results

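The nuclear genes of the mitochondrial respiratory chain and ATP synthase were described in mouse haematopoietic stem and progenitor cells that carried either of 2 forms of the leukaemia fusion PML/RARa. They were chosen by symbol: models whose names begin with the stems for complex I (Nduf), complex II (Sdh), complex III (Uqcr), complex IV (Cox4 to Cox8) and ATP synthase (Atp5), together with Cyc1 and Cycs and without names marked as pseudogenes. This gave 94 of the 34745 gene models in the files, whose coordinates are on GRCm38. None lay on the mitochondrial chromosome. The stems also took in 7 complex I assembly factors and 3 genes that do not encode subunits, so 84 names were subunits, their isoforms or cytochrome c.

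Marrow of C57BL/6 mice that had received 5-fluorouracil was the source of the cells, which were enriched for progenitors with an isolation kit and infected with lentivirus. The 2KR group carried the PML/RARa form labelled 2KR, and the WT group carried PML/RARa labelled WT; the series title says that the work concerns a pair of lysines in the fusion. Both groups were thus given the fusion, both came from 5-fluorouracil-treated mice, and both grew in 20% fetal bovine serum and 1 mM hydrocortisone with SCF at 50 ng/ml and with IL-3 and IL-6 at 10 ng/ml each. Infection with 6 µg/ml polybrene was followed by 24 h of culture before a change of medium, and the transduced cells were sorted before RNA was extracted. An empty-vector arm named in the protocol was not analysed here, so neither library shows cells without the fusion. The labels do not say how many mice or cultures stand behind each library or how old the mice were.

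Electrons from NADH enter the chain at complex I and those from succinate at complex II. Ubiquinone carries them to complex III, cytochrome c carries them to complex IV, and oxygen takes them up there. Complexes I, III and IV pump protons across the inner membrane, and ATP synthase (complex V) uses the gradient to make ATP. Most subunits are encoded in the nucleus, a small core is encoded in mitochondrial DNA, and the nuclear transcription factors NRF1, GABP and YY1 are known for binding the promoters of many of the nuclear genes. Blood stem cells are known to rely little on respiration while quiescent and more on it as they divide and differentiate.

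Promoter sequences were read from the RefSeq table for GRCm38.p6, which gives windows of 250 bases before to 50 after each gene's start; 74 of the 94 genes had one. The stretches below show the NRF1 motif where it occurs, the 3 genes of the c subunit side by side, and 3 complex I genes past 1.5-fold that are described further on. Capitals mark matches to the NRF1 pattern CGCANGCG or its reverse complement, and positions are counted from 0 at the start. Cycs, cytochrome c, is read from chr6:50566570-50566669 on the minus strand; Cox6a1, a subunit of complex IV, from chr5:115349059-115349158, minus; Atp5g2, Atp5g3 and Atp5g1, which encode the same c subunit of the ATP synthase rotor, from chr15:102671048-102671147, chr2:73911327-73911426 and chr11:96075632-96075731, all minus. The assembly factors Ndufaf4 and Ndufaf2 are from chr4:24897933-24898032, plus, and chr13:108158626-108158725, minus, and the complex I subunit Ndufc2 from chr7:97399903-97400002, plus.
Cycs: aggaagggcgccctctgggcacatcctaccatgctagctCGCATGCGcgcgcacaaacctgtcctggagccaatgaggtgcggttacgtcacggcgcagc
Cox6a1: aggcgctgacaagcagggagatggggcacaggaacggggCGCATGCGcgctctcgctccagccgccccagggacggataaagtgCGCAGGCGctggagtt
Atp5g2: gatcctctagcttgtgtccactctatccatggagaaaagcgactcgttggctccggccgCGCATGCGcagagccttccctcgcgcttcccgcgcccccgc
Atp5g3: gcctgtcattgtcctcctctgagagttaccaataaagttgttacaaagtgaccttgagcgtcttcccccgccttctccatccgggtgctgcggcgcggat
Atp5g1: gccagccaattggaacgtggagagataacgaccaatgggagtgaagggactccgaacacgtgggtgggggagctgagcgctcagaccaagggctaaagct
Ndufaf4: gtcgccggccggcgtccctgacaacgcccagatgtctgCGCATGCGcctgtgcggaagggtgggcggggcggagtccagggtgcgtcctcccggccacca
Ndufaf2: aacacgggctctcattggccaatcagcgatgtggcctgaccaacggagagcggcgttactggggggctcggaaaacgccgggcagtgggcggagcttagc
Ndufc2: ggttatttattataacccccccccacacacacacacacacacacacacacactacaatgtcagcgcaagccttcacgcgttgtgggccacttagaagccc
The exact palindrome CGCATGCG lay at positions -61 to -54 of Cycs, -161 to -154 of Cox6a1, -41 to -34 of Atp5g2 and -112 to -105 of Ndufaf4. Of the 3 genes of the c subunit, Atp5g2 alone had the palindrome; Atp5g3 had a match to the looser pattern beyond the stretch shown, at 13 to 20, and Atp5g1 had none in its window. Ndufaf2 had a match to the looser pattern farther out, at -224 to -217, and the whole window of Ndufc2 held none.

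Both strands of every window were searched for 6 short motifs. A gene was counted if any of its windows matched, and 5 of the 74 genes had several windows. The palindrome CGCATGCG was in 12 of the 74 genes (16.2%), against 2.07% of all 27025 genes in the table. Among the 9213 expressed genes, those that averaged 1 CPM or more, the share was 4.49% (CPM is the count scaled to a library total of 1e6). The looser CGCANGCG, which takes in every match to the palindrome, was in 29 (39.2%), against 9.22% of all genes and 20.1% of the expressed ones. The YY1 motif AANATGGCG was in 10 (13.5%), against 2.76% and 6.22%. The ETS motif CCGGAAG, which GABP binds, was in 17 (23.0%), against 9.93% and 20.8%. SP1's GGGCGG was in 33 genes (44.6%), against 38.2% of all genes and 69.6% of expressed genes. CCAAT was also in 33 (44.6%), against 41.1% and 43.1%. Some motif of the NRF1, ETS and YY1 kinds was in 46 of 74 genes (62.2%), against 18.9% of all and 39.8% of expressed genes.

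These matches were spread unevenly over the complexes. Of 13 ATP synthase genes with a window, 12 had a motif of the 3 kinds and 9 the looser NRF1 pattern. Of 13 complex IV genes, 3 had a motif of the 3 kinds and 1 the NRF1 pattern. Among complex I accessory subunits 16 of 27 held one, and 6 of these 27 held the YY1 motif. The complexes were not read alike. The complex IV genes with a window include Cox7b2 and Cox8b, which had 0 counts in both libraries, while Cox4i1 and Cox6c had no window. Several windows, any of which could match, were read for Atp5c1, Atp5d and Atp5j but for no complex IV gene. The medians of genes with and without a motif differed by little and in both directions: the median log2 ratio (2KR over WT) came to 0.07 in 29 genes with the looser NRF1 pattern and 0.05 in 43 without it. Genes with any of the 3 kinds and genes without had medians of 0.06 and 0.06. For ETS these were 0.04 and 0.08, for YY1 0.05 and 0.06, for SP1 0.07 and 0.03, and for CCAAT 0.02 and 0.08. A match is a run of letters in a window and does not show that a factor binds there.

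**Figure D1:**
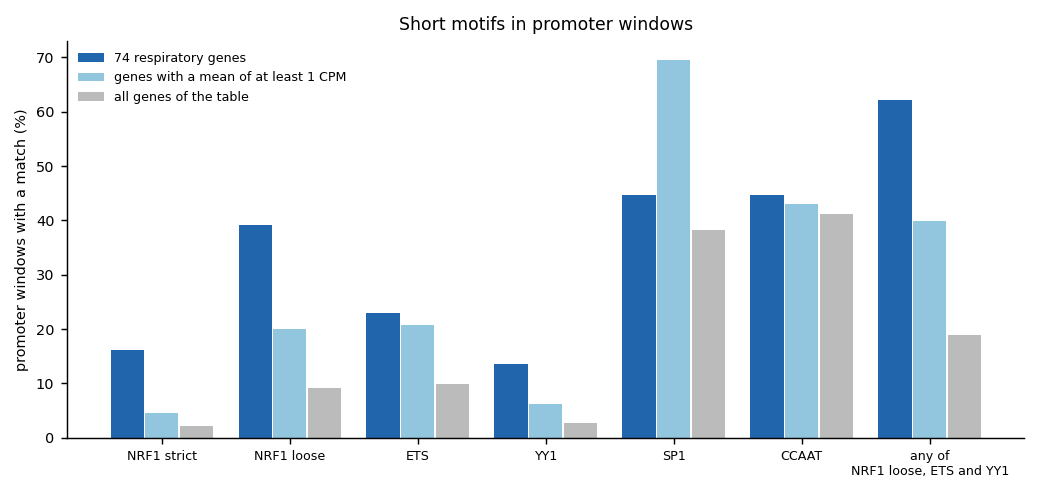
Share of genes (%) with a match to each motif in any of their promoter windows, on either strand. Bars are for the 74 respiratory genes in the RefSeq table (dark blue), genes with a mean of at least 1 CPM (light blue) and all genes of the table (grey). NRF1 and YY1 matches exceed both backgrounds, while SP1 matches are fewer than among expressed genes.

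The libraries held 20462011 counts for 2KR and 17606168 for WT, and 12466 models had a mean of at least 1 CPM. Each form had 1 library, so no value below has a replicate check and no test was made. Ratios are 2KR over WT from counts scaled by TMM (a library-size scaling), followed in parentheses by their exact 95% counting interval, which covers counting error only and not the variation between cultures. A gene is said to differ at a given size by the log2 ratio of CPM + 1, which understates differences of low genes.

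Of the 94 genes, 89 had a mean of at least 1 CPM. The other 5 were paralogues known from other tissues: Cox6a2 and Cox8b are the heart and muscle isoforms of their subunits, Cox7b2 and Cox8c are known from testis, and Ndufa4l2 is a relative of Ndufa4 that is induced by hypoxia. Cox6a2 had 1 count in 2KR and 0 in WT, and the other 4 had 0 in both, where 3 counts, the limit that a count of 0 allows, would be 0.146 CPM in 2KR and 0.172 CPM in WT.

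The respiratory genes were close between the libraries, and their small shift was upward in 2KR. At 2-fold, 1 of 89 was higher in 2KR (all models 2.66%) and 0 were lower (all models 4.56%). At 1.5-fold, 4 were higher (4.5%, against 6.92% of all models) and 3 lower (3.4%, against 9.67%). Of these 7 genes 4 averaged under 10 CPM, and with a pseudocount of 5 CPM 0 genes were past 2-fold and 3 past 1.5-fold. The ratio was above 1 in 58 genes (65.2%, against 52.3% of all models). The counting interval lay wholly above 1 in 25 (28.1%, against 31.6% of all models) and wholly below 1 in 10 (11.2%, against 28.5%). Of 6904 models at 10 to 100 CPM, the range in which most of the respiratory genes lay, 30.9% had an interval above 1 and 27.9% below. The median log2 ratio was 0.07 with quartiles of -0.09 and 0.18, against 0.02 with quartiles of -0.21 and 0.23 over all models and 0.01 with quartiles of -0.18 and 0.21 at 10 to 100 CPM.

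Summed over the 94 genes there were 115224 counts in 2KR and 92989 in WT, or 0.563% and 0.528% of each library, a ratio of 1.05 (1.04 to 1.06). The 2 most abundant genes, Atp5a1 and Atp5b, held much of this sum, and without them the ratio was 1.04 (1.03 to 1.05). With library totals alone the ratio was 1.07, and centred on the median of all models it was 1.04. Fewer cells of a type and less RNA per cell cannot be told apart in these bulk libraries.

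In sum, the lists of cell type markers differed by more than the respiratory genes, except the stromal and endothelial list, with a ratio of 1.03 (1.01 to 1.05). The summed level of 10 mast cell and basophil markers was 3891 CPM in 2KR and 7315 CPM in WT. Of these, 7 were lower in 2KR by 1.5-fold or more (9.67% of all models were), and Mcpt8, at 449.8 and 190.1 CPM, was higher. The 9 granulocyte markers summed to 524.7 CPM in 2KR and 229.7 CPM in WT, of which only 2 passed 1 CPM, and the 9 monocyte and macrophage markers to 129 and 276.6 CPM. All 7 progenitor markers were read in both libraries, with 3246 CPM in 2KR and 2909 CPM in WT; Kit had 1159 and 1359 CPM and Cd34 723 and 388 CPM. Lymphoid markers were near 0 in both, at 2.52 and 4.29 CPM, with 3 of 8 at 0. Of 8 erythroid markers 4 were at 0, and the list summed to 27.1 CPM in 2KR and 18.8 CPM in WT, with Hba-a1 at 20.1 and 10.7 CPM and Hbb-bt at 1.26 and 3.15 CPM. The 6 megakaryocyte markers summed to 1271 CPM in 2KR and 994.1 CPM in WT. Of the 4 that passed 1 CPM, 2 had ratios above 1 and 2 below. Pf4 had 406 CPM in 2KR and 121 CPM in WT, Itga2b 858 and 867 CPM, and Vwf 1.31 and 2.40 CPM. The 5 stromal and endothelial markers summed to 1130 and 1099 CPM, and of the 4 that passed 1 CPM, 2 had ratios above 1 and 2 below. Cdh5 had 9.27 CPM in 2KR and 4.63 CPM in WT, Pecam1 669 and 550 CPM, and Pdgfrb 451 and 543 CPM. The part of these differences in the respiratory values was not tested.

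**Figure D2:**
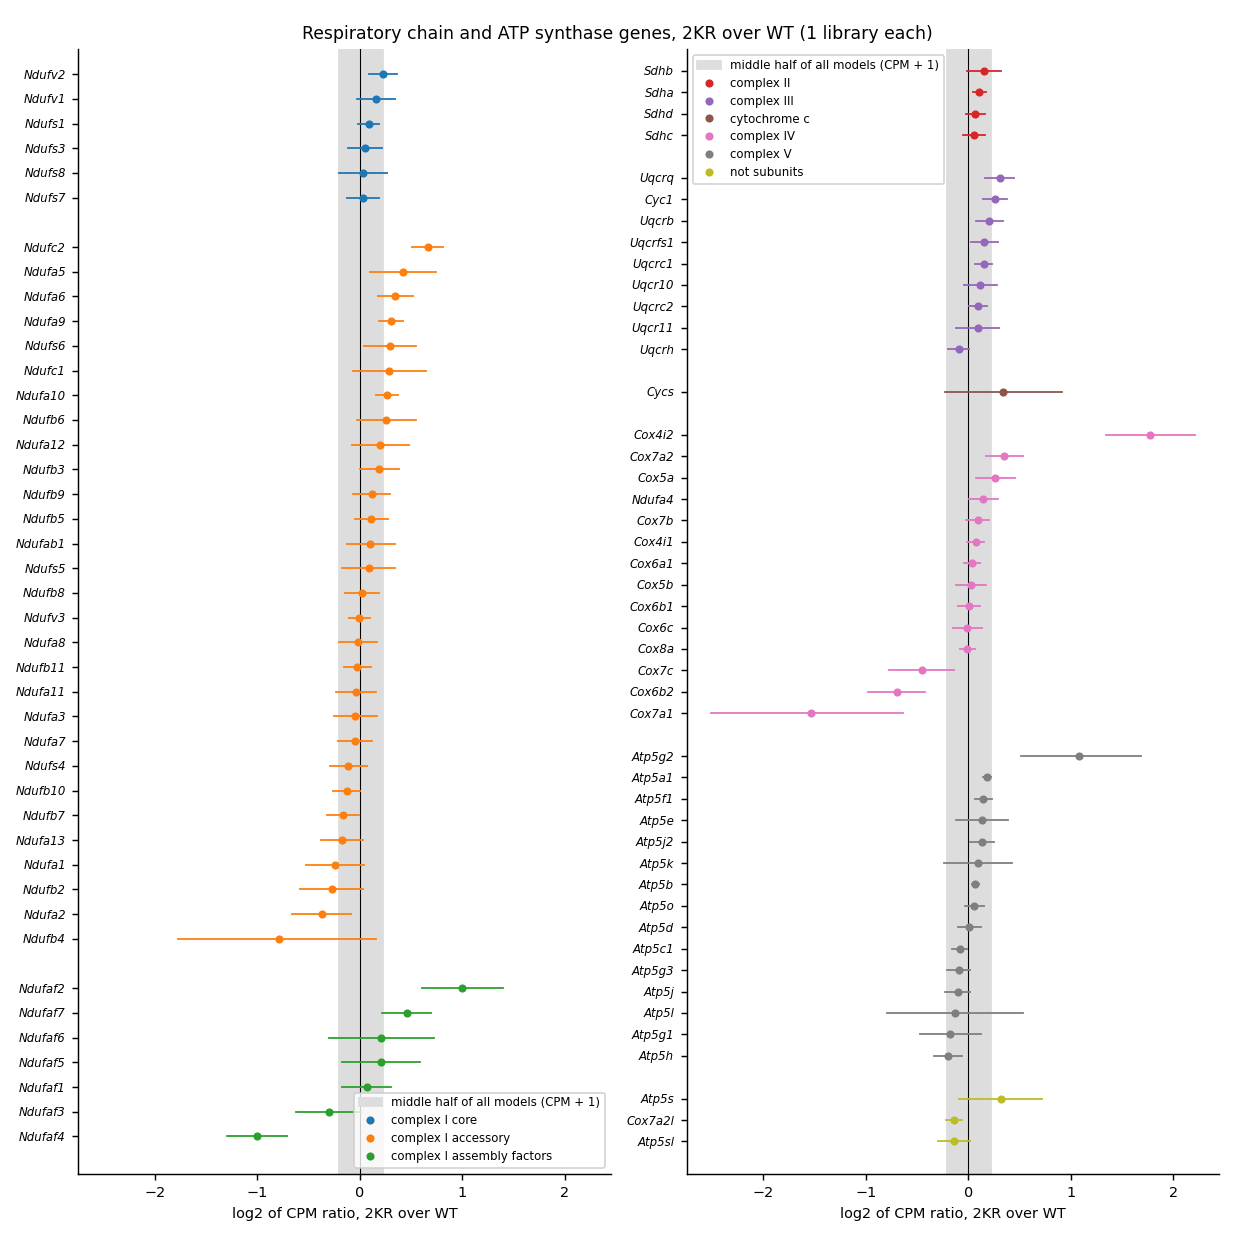
Log2 of the CPM ratio of 2KR over WT for genes with a mean of at least 1 CPM, by complex or role. Points are ratios of 1 library each, bars are 95% counting intervals, and the grey band spans the quartiles of all models (-0.21 to 0.23, from CPM + 1). Most points lie in or near the band, with Cox4i2, Atp5g2 and Ndufaf2 far to the right and Cox7a1 and Ndufaf4 far to the left.

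Complex I, the NADH dehydrogenase, has 7 core subunits encoded in the nucleus, and all stayed within 1.5-fold. Their counts summed to 7772 in 2KR and 6503 in WT, a ratio of 1.01 (0.981 to 1.05), and the median log2 ratio was 0.05. Ndufv2, an iron-sulphur subunit of the NADH-oxidising tip, had 50.3 CPM in 2KR and 43.0 CPM in WT, a ratio of 1.17 (1.06 to 1.29), the only core subunit with an interval above 1. Its partner Ndufv1, which binds NADH and FMN, had 27.2 and 24.4 CPM (ratio 1.11, 0.979 to 1.27). Ndufs3, Ndufs7 and Ndufs8, of the module that passes electrons to ubiquinone, had 32.1, 36.2 and 15.8 CPM in 2KR and 31.1, 35.4 and 15.4 CPM in WT. Ndufs1, the largest iron-sulphur subunit, had 84.3 CPM in 2KR and 79.6 CPM in WT. The intervals of Ndufv1 and of these 4 genes held 1.

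The 29 accessory subunits, which surround the core and do not carry electrons, split almost evenly. Their ratios were above 1 in 15 (51.7%, against 52.3% of all models) and below in 14. Ndufc2, a subunit of the membrane arm (ENSMUSG00000030647, chromosome 7, 97400003 to 97407802), was the only one past 1.5-fold: it had 1054 counts in 2KR and 566 in WT, or 51.2 and 32.4 CPM, a ratio of 1.58 (1.43 to 1.75). The gene 7818 bases from it, Alg8, had 904 and 557 counts, a ratio of 1.38 (1.24 to 1.53). Intervals above 1 were also found for Ndufa5 (10.2 CPM in 2KR, 7.61 CPM in WT), Ndufa6 (36.0 and 28.3), Ndufa9 (69.4 and 56.4), Ndufa10 (82.5 and 68.8) and Ndufs6 (15.6 and 12.8). Only Ndufa2 and Ndufb7 had intervals below 1. Ndufa2 had 9.17 CPM in 2KR and 11.9 CPM in WT (ratio 0.771, 0.630 to 0.943), and Ndufb7 had 34.7 and 39.0 CPM (ratio 0.892, 0.802 to 0.992). The smallest ratio was that of Ndufb4, with 17 counts in 2KR and 25 in WT, and its interval held 1 (0.577, 0.292 to 1.11). The level of Ndufb4 is uncertain, since the pseudogene Ndufb4c, which was not counted, holds its whole coding sequence with 100% identity. The accessory subunits summed to 17103 counts in 2KR and 13639 in WT, a ratio of 1.06 (1.04 to 1.09).

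The 7 assembly factors, which help to build complex I and are not part of it, spread widely. Ndufaf2 (ENSMUSG00000068184, chromosome 13, 108052590 to 108158625), which joins late intermediates of complex I, had 183 counts in 2KR and 78 in WT, or 8.88 and 4.46 CPM, a ratio of 1.99 (1.52 to 2.63). The opposite held for Ndufaf4 (ENSMUSG00000028261, chromosome 4, 24898083 to 24905001), which acts at an early step: 157 counts in 2KR and 267 in WT, or 7.62 and 15.3 CPM, a ratio of 0.499 (0.407 to 0.610). Neither gene overlapped another model or had a near-identical copy. Ercc8, which starts 106 bases from Ndufaf2, had 159 counts in 2KR and 124 in WT, a ratio of 1.09 (0.855 to 1.39). Ndufaf7, a methyltransferase, had 18.7 and 13.7 CPM and a ratio of 1.37 (1.16 to 1.62). The intervals of Ndufaf1, Ndufaf3, Ndufaf5 and Ndufaf6 held 1. With ratios on both sides of 1, the summed ratio of the 7 was 1.03 (0.953 to 1.11).

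Complex II, succinate dehydrogenase, is the only complex encoded wholly in the nucleus, and its 4 genes had nearly equal ratios. Sdha, the flavoprotein, had 223 CPM in 2KR and 207 CPM in WT (ratio 1.08, 1.03 to 1.12). Sdhb, the iron-sulphur subunit, had 32.7 and 29.3 CPM (1.11, 0.991 to 1.25). The membrane anchors Sdhc and Sdhd had 72.0 and 110 CPM in 2KR and 69.3 and 105 CPM in WT, with ratios of 1.04 and 1.05. All 4 ratios were above 1 (52.3% of all models were), and only that of Sdha had an interval that did not hold 1.

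Complex III, the cytochrome bc1 complex, had the highest summed ratio of the 5 complexes: 12527 counts in 2KR and 9715 in WT, 1.09 (1.07 to 1.12). Of its 9 genes 8 had ratios above 1 (88.9%, against 52.3% of all models), and 6 of these had intervals above 1 (66.7%, against 31.6% of all models). Uqcrq, a small subunit, had 49.3 CPM in 2KR and 39.8 CPM in WT (ratio 1.24, 1.12 to 1.36), and Cyc1, the haem-bearing cytochrome c1 (ENSMUSG00000022551, chromosome 15, 76343523 to 76345934), had 65.4 and 54.6 CPM (1.20, 1.10 to 1.30). The Rieske iron-sulphur protein Uqcrfs1 had 53.9 and 48.4 CPM (1.11, 1.02 to 1.22). The core proteins Uqcrc1 and Uqcrc2 had 137 and 112 CPM in 2KR and 124 and 105 CPM in WT, ratios of 1.11 and 1.07. The exception was Uqcrh, the hinge protein that contacts cytochrome c1, with 80.0 CPM in 2KR and 85.5 CPM in WT (0.936, 0.872 to 1.00). None of the 9 reached 1.5-fold.

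Cycs, the mobile carrier between complexes III and IV (ENSMUSG00000063694, chromosome 6, 50562563 to 50566538), had only 67 counts in 2KR and 45 in WT, a ratio of 1.26 (0.853 to 1.89). Its testis paralogue Cyct had 0 counts in both. A model on chromosome 19, Gm10053 (24875686 to 24876634), holds the whole 315-base Cycs coding sequence with 100% identity and had 1925 counts in 2KR and 1549 in WT. Reads of the coding region cannot be assigned to either place by sequence, and the level of Cycs is uncertain. Added together the models had 1992 and 1594 counts, a ratio of 1.06 (0.992 to 1.13).

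Such copies were looked for with every gene. At 95% identity over at least 50% of the coding sequence, 24 of 94 genes had 46 copies elsewhere in GENCODE M21, of which 42 are processed pseudogenes; 11 of the copies, of 9 genes, have rows in the files. Atp5h, the d subunit of the ATP synthase stalk, had fewer counts (880 in 2KR, 857 in WT) than its pseudogene Gm10250 on chromosome 15 (1346 and 1072). Its own ratio was 0.871 (0.792 to 0.958), and that of both together was 0.979 (0.921 to 1.04), which holds 1. Cox5b had 814 and 679 counts and its copy Gm11273 329 and 274, and Ndufs5 had 284 and 227 counts and its copy BC002163 155 and 113. Atp5l, the g subunit, had the most copies, 8, and 42 counts in 2KR and 39 in WT. Levels of these genes are uncertain, since the sources used here do not say how reads with several matches were counted.

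Complex IV, cytochrome c oxidase, was nearly level in sum, with 16174 counts in 2KR and 13252 in WT (ratio 1.04, 1.01 to 1.06), and held the genes that differed most. Cox8a, the ubiquitous form of subunit VIII and the gene with the highest deposited FPKM of the 94, had 305 FPKM (counts per kilobase of gene length, scaled to library total) in 2KR and 303 FPKM in WT. Cox6b1 had 154 and 150 FPKM, and Cox6a1 122 and 117 FPKM, with ratios from counts of 1.01 and 1.03. Above 1 with their intervals were Cox7a2 (32.0 CPM in 2KR, 25.1 CPM in WT; 1.28, 1.13 to 1.44), Cox5a (26.5 and 22.1 CPM; 1.20, 1.05 to 1.37) and, at 46.2 and 41.7 CPM, Ndufa4. Cox7c had 7.47 CPM in 2KR and 10.2 CPM in WT, a ratio of 0.730 (0.585 to 0.911), and it has 3 near-identical copies.

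The large differences of complex IV lay in the minor isoforms, while the main isoforms were nearly level apart from Cox7a2. Cox4i2 (ENSMUSG00000009876, chromosome 2, 152754173 to 152765037), the isoform of subunit IV known from lung and from cells at low oxygen, had 229 counts in 2KR and 57 in WT, or 11.1 and 3.26 CPM. Its ratio of 3.41 (2.54 to 4.64) was the largest of the 89, and by the log2 ratio of CPM + 1 it was the only gene past 2-fold. The main form Cox4i1 had 2374 and 1919 counts (1.05, 0.988 to 1.12), so that Cox4i2 made up 8.80% of the counts of this pair in 2KR (Wilson 95% interval 7.77 to 9.95) and 2.89% in WT (2.23 to 3.72). Per length, Cox4i2 had 9.62 FPKM in 2KR and 2.78 FPKM in WT, beside 43.6 and 41.0 FPKM of Cox4i1. The genes around Cox4i2 differed in both directions: Bcl2l1, 15631 bases away, had 790 and 371 counts (1.81, 1.60 to 2.05), and Id1, 16763 bases away, had 152 and 304 (0.424, 0.347 to 0.517).

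Cox6b2 (ENSMUSG00000051811, chromosome 7, 4751792 to 4753094), the form of subunit VIb known from testis, was on the other side, with 187 counts in 2KR and 257 in WT, or 9.08 and 14.7 CPM, a ratio of 0.617 (0.509 to 0.748). Cox6b1 had 1587 and 1338 counts, and the share of Cox6b2 in the counts of the pair was 10.5% in 2KR and 16.1% in WT. Per length its share was smaller, at 2.08% of the FPKM of the pair in 2KR and 3.34% in WT. Cox7a1 (ENSMUSG00000074218, chromosome 7, 30184171 to 30186028), the heart and muscle form of subunit VIIa, had 15 counts in 2KR and 37 in WT, or 0.728 and 2.12 CPM, a ratio of 0.344 (0.175 to 0.642), beside 660 and 439 counts of the ubiquitous Cox7a2. Both libraries thus used the same main isoforms, Cox4i1, Cox6a1, Cox6b1, Cox7a2, Cox7b and Cox8a. Cox7a2l, a relative of Cox7a2 that is taken here as not a subunit, was left out of this comparison. It had more counts than Cox7a2, with 2704 in 2KR and 2527 in WT.

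**Figure D3:**
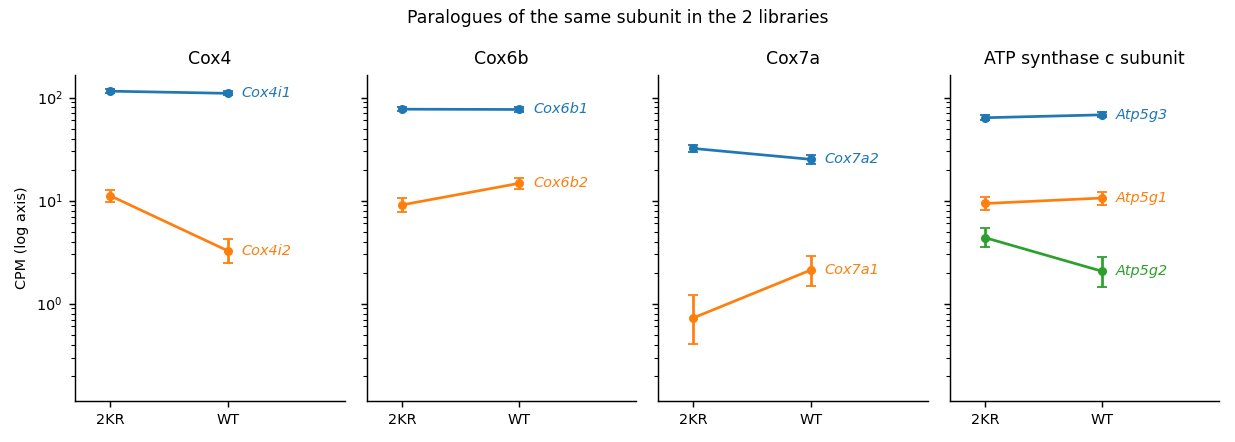
CPM (log axis) of paralogues of the same subunit in the 2KR and WT libraries; bars are exact 95% Poisson intervals of the counts. The main forms are nearly level apart from Cox7a2 (ratio 1.28), while Cox4i2 and Atp5g2 are higher in 2KR and Cox6b2 and Cox7a1 are lower. Cox7a2l, taken as not a subunit, is not drawn.

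ATP synthase gave the most counts, 47584 in 2KR and 38191 in WT, a ratio of 1.06 (1.04 to 1.07). The catalytic head subunits led: Atp5b had 923 CPM in 2KR and 880 CPM in WT (1.05, 1.03 to 1.07), and Atp5a1 had 673 and 593 CPM (1.13, 1.11 to 1.16). Of the central stalk genes, Atp5c1 (gamma) had 143 CPM in 2KR and 152 CPM in WT (0.942, 0.894 to 0.993), Atp5d (delta) 69.1 and 68.7 CPM (1.01, 0.930 to 1.09) and Atp5e (epsilon) 14.8 and 13.4 CPM (1.10, 0.923 to 1.31). Of the peripheral stalk, Atp5f1 (b) had 141 and 128 CPM (1.11, 1.05 to 1.17), Atp5o (OSCP) 96.0 and 92.2 CPM, and Atp5j (F6) 55.9 and 60.1 CPM. Atp5f1 overlapped the opposite-strand model Gm42890, which had 101 counts in 2KR and 7 in WT. Atp5o, whose model overlaps 6 others, and Atp5j, which overlaps Gabpa, can share reads with them if strand was not used in counting. Donson and Cryzl1, both among the 6, lie on the same strand as Atp5o, so strand would not separate them.

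The c subunit, which forms the rotor ring, is made from 3 genes whose mature proteins are identical. Atp5g3 had the most counts, with 1311 in 2KR and 1187 in WT (0.937, 0.866 to 1.01). Atp5g1 had 193 and 185 counts (0.885, 0.720 to 1.09). Atp5g2 (ENSMUSG00000062683, chromosome 15, 102662864 to 102672352), the gene with the NRF1 palindrome shown above, had 90 counts in 2KR and 36 in WT, or 4.37 and 2.06 CPM, a ratio of 2.12 (1.43 to 3.22). It took 5.65% of the c subunit counts in 2KR and 2.56% in WT, and with its copy Gm10175 (10 and 13 counts) the ratio was 1.73 (1.22 to 2.49). The 3 genes together had 1594 counts in 2KR and 1408 in WT, so the higher count of Atp5g2 added little to the counted whole. Atp5g1 also has a near-identical copy, Gm10039, and Atp5g2 another, Gm10231, and neither copy was counted. No such copy was found for Atp5g3. If reads with several matches were dropped, Atp5g1 and Atp5g2 would lose those shared with the copies found, so the shares of the 3 genes are uncertain. Shorter matches and matches outside the coding sequence were not looked for in any of the 3.

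Levels per length varied more within a complex than between the libraries. Among complex III genes the deposited FPKM spanned 2.90-fold in 2KR and 2.77-fold in WT, with Cyc1 highest at 55.1 and 45.4 FPKM. In ATP synthase it spanned 140-fold and 130-fold. The lengths behind the FPKM enter this spread. The length implied by the FPKM was set against the coding transcript, here the shortest transcript that holds the gene's longest coding sequence. Over 90 genes it had a median of 2.13 times that length (0.751 to 16.4 times), and it was over 2 times in 50. Atp5g1 had 0.963 FPKM in 2KR and 1.07 FPKM in WT, and 15.7 and 17.8 CPM per kilobase of coding transcript. By this second scale Atp5b was highest of the ATP synthase genes at 482 and 459, and Atp5l lowest at 3.75 and 4.10.

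The 3 names taken in by the rule that are not subunits had lower values in 2KR in sum (3552 counts in 2KR, 3288 in WT; 0.917, 0.874 to 0.962). Cox7a2l, known for a part in supercomplexes of complexes III and IV, had 131 CPM in 2KR and 145 CPM in WT (0.908, 0.860 to 0.959). Whether its product has that part in these cells was not tested. Atp5sl, a factor for complex I assembly, had 34.9 and 38.5 CPM, and Atp5s had 6.26 and 5.03 CPM. The interval of each of these 2 held 1.

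The genes of the same complexes that are encoded in mitochondrial DNA lay on the other side of 1. Of 13 mitochondrial mRNAs 12 had a ratio below 1 and 1 above it (7.7%, against 52.3% of all models). Their median log2 ratio was -0.31. By complex, the summed ratio of nuclear genes was 1.05 and that of mitochondrial genes 0.788 in complex I, 1.09 and 0.674 in complex III, 1.04 and 0.876 in complex IV, and 1.06 and 0.813 in complex V. The mitochondrial mRNAs are by far the more abundant, with 6.22% of counts in 2KR and 7.45% in WT: mt-Co1 had 22286 and 24572 CPM, and mt-Atp6 5765 and 7129 CPM. With the mitochondrial models left out of the totals, the summed ratio of the nuclear genes was again 1.05.

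**Figure D4:**
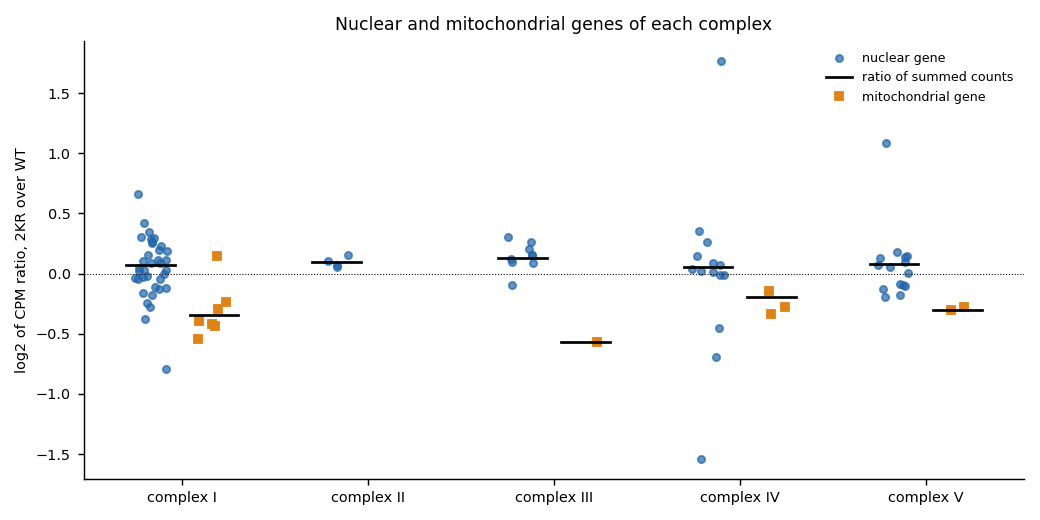
Log2 of the CPM ratio of 2KR over WT for nuclear (circles) and mitochondrial (squares) genes of each complex, 1 library each; horizontal bars are ratios of summed counts. The nuclear bars lie above 0 in all 5 complexes and the mitochondrial bars below 0 in the 4 that have them.

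Nuclear regulators were read from a list of 21 genes that act on respiratory genes or on mitochondrial transcription. All passed 1 CPM, and the median log2 ratio was 0.03. At 2-fold, 0 were higher (all models 2.66%) and 2 lower (all models 4.56%). Ppargc1a (ENSMUSG00000029167, chromosome 5, 51454250 to 51567726), the coactivator PGC-1alpha that promotes mitochondrial biogenesis, had 198 counts in 2KR and 843 in WT, or 9.61 and 48.2 CPM, a ratio of 0.199 (0.170 to 0.233). Tfb2m (ENSMUSG00000026492, chromosome 1, 179528055 to 179546267), the factor that opens mitochondrial promoters with the mitochondrial RNA polymerase, had 170 and 358 counts, or 8.25 and 20.5 CPM, a ratio of 0.403 (0.334 to 0.485). The other factors of mitochondrial transcription did not share this: Tfam had 42.5 CPM in 2KR and 32.3 CPM in WT (1.32, 1.18 to 1.47), and the polymerase gene Polrmt 39.7 and 41.4 CPM. The factors whose motifs were counted were nearly level, with Nrf1 at 30.0 and 29.0 CPM, Gabpa at 99.6 and 99.2 CPM and Yy1 at 124 and 113 CPM. Esrra, a nuclear receptor partner of PGC-1alpha, had 12.6 CPM in 2KR and 16.2 CPM in WT (0.777, 0.654 to 0.922). The most abundant of the list, Hcfc1 and Sp1, had 355 and 180 CPM in 2KR and 328 and 182 CPM in WT.

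**Figure D5:**
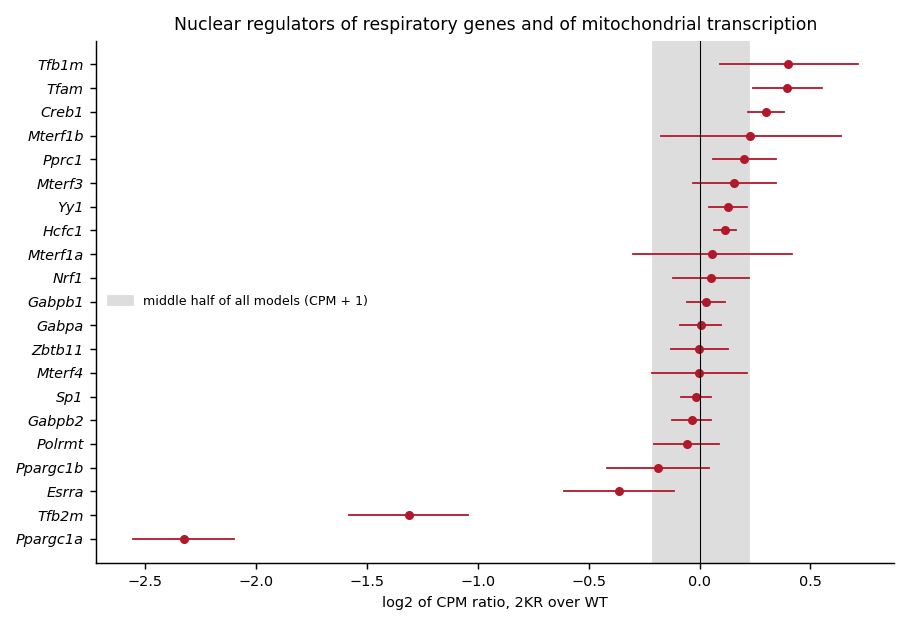
Log2 of the CPM ratio of 2KR over WT for 21 nuclear regulators, with 95% counting intervals (1 library each) and the quartiles of all models from CPM + 1 (grey). Ppargc1a and Tfb2m lie far below the others, which fall near or within the band.

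Genes that serve the chain without belonging to it were also near level. Of 42 assembly and insertion factors past 1 CPM, 1 was higher (2.4%, against 6.92% of all models) and 0 lower (all models 9.67%) at 1.5-fold. The median log2 ratio was 0.05. The 1 was Cox17, a copper chaperone for complex IV, with 461 counts in 2KR and 248 in WT (1.58, 1.35 to 1.85). The ATPase inhibitor Atpif1 was the most abundant at 135 CPM in 2KR and 145 CPM in WT (0.930, 0.881 to 0.982), followed by Coa5 at 86.6 and 74.8 CPM. The 13 genes of ubiquinone synthesis had 9 ratios above 1 (69.2%, against 52.3% of all models) and a median log2 ratio of 0.14. At 1.5-fold, 0 were higher (all models 6.92%) and 0 lower (all models 9.67%). The most abundant were Adck4 (35.8 CPM in 2KR, 36.1 CPM in WT) and Coq9 (36.2 and 32.8 CPM).

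The 18 genes of the citrate cycle and pyruvate oxidation, which feed electrons into the chain, had a median log2 ratio of 0.11. Of their ratios 14 were above 1 (77.8%, against 52.3% of all models). At 1.5-fold, 1 gene was higher (5.6%, against 6.92% of all models) and 0 lower (all models 9.67%). Idh2, the mitochondrial NADP-dependent isocitrate dehydrogenase (ENSMUSG00000030541, chromosome 7, 80094846 to 80115392), was the only one past 1.5-fold, with 3346 counts in 2KR and 1803 in WT, or 162 and 103 CPM (1.57, 1.49 to 1.67). Cs, citrate synthase, was among the most abundant of the list and nearly level, at 239 CPM in 2KR and 237 CPM in WT.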

How the data were processed

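Per the file headers, the authors deposited raw read counts and FPKM (scaled to gene length and library total) per gene model and library. HISAT2 2.0.4 and the build GRCm38 were used, per the submitters' processing notes; the counting program, annotation and strandedness are not stated. Of 15403 models counted in both, all 15403 had a deposited FPKM within 0.1% of the count over a fixed length and the library total.

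Counts were scaled by TMM in edgeR 4.0.16 (R 4.3.3; factors 1.007 for 2KR and 0.993 for WT) and given as CPM, with a pseudocount of 1 CPM on the log2 scale and a filter at a mean of 1 CPM. Ratios carry exact Clopper-Pearson intervals and shares Wilson intervals, for counting error only. Copies were found with BLAST 2.17.0 against GENCODE M21 transcripts, which also gave strand and type; 64 of 94 genes had the same start and end there. Python 3.11.15, pandas 2.3.3, scipy 1.17.1 and matplotlib 3.10.9 were used, and the scripts were tested on simulated data. DESeq2 1.42.0 size factors were an alternative; other alternatives are in the closing section.

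The members, lists and rules were chosen with earlier results of these data known. Named genes were, in each role, the highest by FPKM and the largest and smallest log2 ratio, every gene past 1.5-fold, the isoform sets, the complex I core and Cyc1 and Cycs, and in the other lists those past 1.5-fold and the 2 most abundant. Genes named beyond these were chosen after their values were seen. Protein sequences were not used here. Some genes that the rule for names takes in are counted in the sums and medians but not reported here by name, nor drawn in the plot of ratios by gene.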

Additional observations from a re-analysis of the deposited data

How the results depend on the processing

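The median, the summed ratio and the genes whose interval did not hold 1 kept their direction under the alternatives run for each. With library totals only, the ratios of Ndufa8 (1.001), Ndufv3 (1.01), Cox6c (1.007) and Cox8a (1.006), whose intervals held 1, moved from below to above 1. The count of genes at least 2-fold different (1) was 3 with a pseudocount of 0.1, 0 with a pseudocount of 5, 2 with the deposited FPKM, and 0 with genes under 10 CPM left out. The count at 1.5-fold (7) was 3 with a pseudocount of 5 and 3 with genes under 10 CPM left out. The summed ratio (1.051) was 1.066 with library totals only, 1.039 centred on the median of all models, 1.063 from the deposited FPKM and 1.061 with genes that have a near-identical copy left out. The last of these and the 10 CPM limit were chosen after seeing the data. The median log2 ratio of 0.07 ranged from 0.05, when centred, to 0.09, with library totals only. No paired analysis was possible because each form had 1 library. For the same reason no library could be left out. Genes under 10 CPM have wide counting intervals: of the 7 genes past 1.5-fold, 4 are among them.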
